A study of Arabidopsis thaliana with 18 samples.

Results

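The jasmonate ZIM-domain (JAZ) genes described here are 10 loci of Arabidopsis thaliana, chosen by their locus codes out of 30014 genes on the array. They are JAZ1 (AT1G19180), JAZ2 (AT1G74950), JAZ3 (AT3G17860), JAZ5 (AT1G17380), JAZ6 (AT1G72450), JAZ7 (AT2G34600), JAZ8 (AT1G30135), JAZ9 (AT1G70700), JAZ10 (AT5G13220) and JAZ12 (AT5G20900). Further JAZ genes, among them JAZ4 and JAZ11, were outside this choice and are counted with other genes of the wider TIFY family. Below, the family means the 10 chosen loci. All 10 were measured, and by locus code 6 lie on chromosome 1, 2 on chromosome 5, and 1 each on chromosomes 2 and 3. The 2 genotypes were compared at 3 stages, with 3 biological replicate arrays in each of the 6 groups. The genotypes were NIL-DOG1, labelled wild type, and rdo5-1, a mutant of the phosphatase-family gene RDO5 that acts in seed dormancy. The stages were siliques (14 days after pollination), dry seeds taken fresh from the harvest, and seeds after 6 hours of imbibition. All plants grew on soil in a chamber with long days and received no treatment, and the labels give neither the parent line of rdo5-1 nor the number of plants behind an array.

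JAZ proteins are repressors of signalling by the plant hormone jasmonate. They bind MYC transcription factors, and through the adaptor NINJA or a repression motif of their own they recruit TOPLESS co-repressors, which keeps jasmonate response genes off. When the active hormone, a jasmonate-isoleucine conjugate, accumulates, a ubiquitin ligase marks JAZ proteins for destruction and the MYC factors are released. Many JAZ genes are themselves MYC targets, so that transcript levels of the family often follow hormone signalling. In seeds, jasmonates interact with the abscisic acid and gibberellin pathways that set dormancy and germination.

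Values are log2 expression levels, 1 per gene and array. Differences are log2 differences from a limma fit to all 18 arrays, in which a gene was called when its p-value, adjusted by the Benjamini-Hochberg method over all 30014 genes, was under 0.05. RDO5 (AT4G11040) was lower in rdo5-1 at all 3 stages, with differences from -0.93 in dry seeds to -1.34 in imbibed seeds (highest adjusted p = 0.0085) and no overlap of arrays. Correlations between replicate arrays were 0.990 to 0.995. Seed identity markers (SESA1, CRA1, CRU3 and OLEO1) were near the top of the scale in all groups, with array means of 14.08 to 14.29. The silique wall and leaf-like tissue markers (IND, SHP1, SHP2, FUL, RBCS1A, LHCB1.3 and LHCB2.1) averaged 7.80 to 8.01 on silique arrays and 4.22 to 4.48 on seed arrays. On NIL-DOG1 silique array 2, 7 of the 10 JAZ genes had the lowest value of their group, and on array 3 of that group 7 had the highest.

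The family divided by stage. In both genotypes JAZ1, JAZ2, JAZ5, JAZ6, JAZ9 and JAZ12 were lower in dry seeds than in siliques, and JAZ3, JAZ7, JAZ8 and JAZ10 were higher. All 10 were called in each genotype, by limma with Benjamini-Hochberg adjustment. Among all genes tested, 26.6% were called lower and 27.4% higher in NIL-DOG1, and 25.7% and 27.2% in rdo5-1. The median JAZ difference was -1.37 in NIL-DOG1 and -1.54 in rdo5-1, where the median of all genes was 0.05 and 0.06. The silique wall and leaf-like tissue markers moved with the falls. All 7 were lower in dry seeds, by 0.77 (IND) to 5.50 (LHCB1.3) in NIL-DOG1, and their part in the result was not tested. In such bulk samples, fewer cells of a type and less RNA per cell cannot be told apart.

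**Figure D1:**
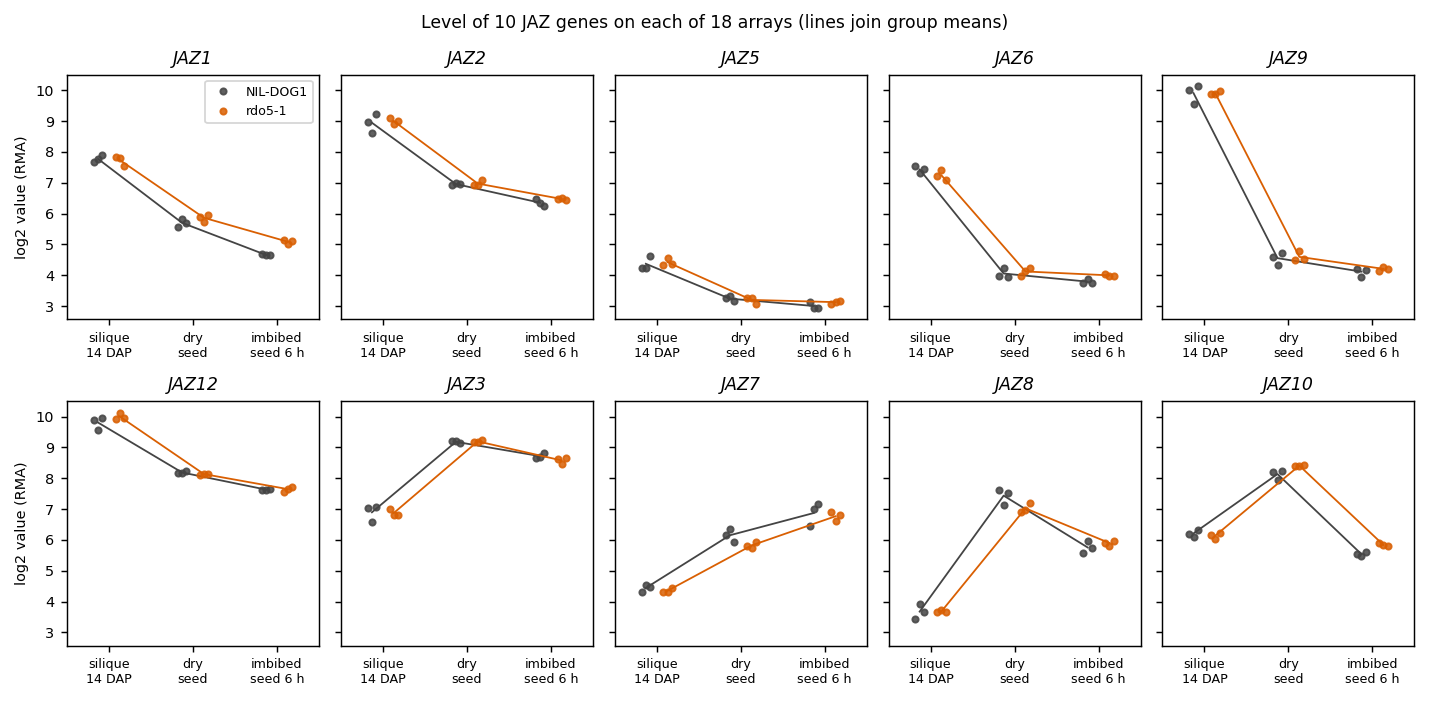
Log2 expression value (y axis) of each JAZ gene on every array, by stage (x axis; siliques at 14 days after pollination, dry seeds, seeds imbibed for 6 h), with NIL-DOG1 in grey and rdo5-1 in orange, 3 points per group and lines joining group means. The first 6 genes drop from siliques to dry seeds, JAZ3, JAZ7, JAZ8 and JAZ10 rise, and JAZ7 is the 1 gene whose values rise again on imbibition.

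JAZ9, whose protein binds the gibberellin-pathway DELLA repressor RGA, had the largest stage difference of the family. In NIL-DOG1 its values were 10.02, 9.55 and 10.15 in siliques, 4.59, 4.34 and 4.73 in dry seeds, and 4.21, 3.96 and 4.17 after imbibition. In rdo5-1 they were 9.88, 9.87 and 9.96 in siliques, 4.48, 4.78 and 4.53 in dry seeds, and 4.14, 4.26 and 4.22 after imbibition. Every silique array lay far above every seed array, and the genotypes overlapped at each stage. From siliques to dry seeds JAZ9 fell by 5.35 in NIL-DOG1 (SE 0.14; 40.9-fold; adjusted p = 8.6e-15) and by 5.31 in rdo5-1 (39.6-fold; adjusted p = 9.0e-15). In imbibed seeds its group means stood at percentiles 51.1 and 52.6 of all genes, where background signal can compress a fold.

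JAZ6 followed the same course at a smaller scale. Its values ran from 7.31 to 7.55 in NIL-DOG1 siliques and from 7.09 to 7.41 in rdo5-1 siliques, against 3.95 to 4.24 on the 6 dry seed arrays. The fall was 3.37 in NIL-DOG1 (10.4-fold; adjusted p = 5.3e-14) and 3.12 in rdo5-1 (8.68-fold). Among all genes, the JAZ6 mean in dry seeds ranked at percentile 49.9 in NIL-DOG1 and 50.7 in rdo5-1. Background signal may therefore compress the JAZ6 folds as well. JAZ5, which resembles JAZ6 in sequence, was dim throughout, from 4.23 to 4.63 in siliques and from 3.07 to 3.32 in dry seeds. It fell by 1.13 in NIL-DOG1 and by 1.22 in rdo5-1 (highest adjusted p = 6.7e-08), and its percentile among all genes was at most 51.5 in any group, where the same limit applies.

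JAZ1 and JAZ2, closely related repressors that jasmonate induces early, and JAZ12, whose protein is stabilised by the ubiquitin ligase KEG, fell less than JAZ9 and JAZ6. JAZ2 went from 8.62 to 9.24 on silique arrays to 6.92 to 7.08 on dry seed arrays, with differences of -1.99 in NIL-DOG1 and -2.03 in rdo5-1. JAZ12 went from 9.57 to 10.12 on silique arrays to 8.12 to 8.23 on dry seed arrays, with differences of -1.62 and -1.86. JAZ1 fell by 2.07 in NIL-DOG1 and 1.87 in rdo5-1, and its values stand with the genotype comparison. These 3 genes kept percentiles of 59.0 or more of all genes at every stage.

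JAZ8 rose most. It encodes a short JAZ protein that lacks the canonical degron, resists hormone-dependent destruction and carries a repression motif that binds TOPLESS directly. In NIL-DOG1 its values were 3.44, 3.93 and 3.65 in siliques, 7.63, 7.15 and 7.53 in dry seeds, and 5.56, 5.97 and 5.73 after imbibition. In rdo5-1 they were 3.65, 3.74 and 3.65 in siliques, 6.91, 6.96 and 7.20 in dry seeds, and 5.91, 5.81 and 5.97 after imbibition. The 3 stages did not overlap in either genotype, and dry seeds were highest. Dry seeds exceeded siliques by 3.76 in NIL-DOG1 (SE 0.14; 13.6-fold; adjusted p = 7.3e-13) and by 3.34 in rdo5-1 (10.1-fold; adjusted p = 3.1e-12). Silique values stood at percentiles of 38.1 and 38.5 of all genes, where the same limit applies.

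JAZ3, the locus of the dominant jasmonate-insensitive mutant jai3-1, rose in seeds. Its values were 7.03, 6.59 and 7.06 in NIL-DOG1 siliques, 9.22, 9.19 and 9.13 in dry seeds, and 8.66, 8.68 and 8.81 after imbibition. Dry seeds exceeded siliques by 2.29 in NIL-DOG1 (4.88-fold; adjusted p = 8.9e-12) and 2.33 in rdo5-1 (5.01-fold). JAZ9 and JAZ3 thus moved in opposite directions between siliques and seeds. Of 8 other genes of the same TIFY family, 4 rose and 1 fell from siliques to dry seeds in each genotype (of all genes 27.4% and 27.2% rose). JAZ4, a relative of JAZ3 and JAZ9, rose by 1.08 in NIL-DOG1 and 0.85 in rdo5-1 (highest adjusted p = 4.7e-07), and TIFY8, which also binds the NINJA adaptor, fell by 2.06 and 2.28.

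JAZ10, a repressor known for splice variants that resist destruction and for limiting the hormone response, peaked in dry seeds. In NIL-DOG1 its values were 6.20, 6.10 and 6.33 in siliques, 8.21, 7.96 and 8.23 in dry seeds, and 5.53, 5.47 and 5.60 after imbibition. In rdo5-1 they were 6.16, 6.02 and 6.23 in siliques, 8.40, 8.39 and 8.44 in dry seeds, and 5.89, 5.82 and 5.80 after imbibition. Dry seeds stood above siliques, and imbibed seeds below siliques, with no overlap between stages in either genotype. The rise to dry seeds was 1.92 in NIL-DOG1 (3.80-fold; adjusted p = 5.3e-12) and 2.27 in rdo5-1 (4.83-fold; adjusted p = 6.5e-13). The array gives 1 value per locus, so the 7 RefSeq transcripts of JAZ10 were not resolved.

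JAZ7, a close relative of JAZ8 with a role in dark-induced leaf senescence, rose at both transitions. In NIL-DOG1 its values were 4.30, 4.55 and 4.46 in siliques, 6.15, 6.36 and 5.93 in dry seeds, and 6.45, 6.99 and 7.18 after imbibition. In rdo5-1 they were 4.32, 4.30 and 4.43 in siliques, 5.79, 5.75 and 5.92 in dry seeds, and 6.90, 6.60 and 6.80 after imbibition. The stages were ordered siliques, dry seeds, imbibed seeds without overlap in each genotype. The first rise was 1.71 in NIL-DOG1 (adjusted p = 4.5e-08) and 1.47 in rdo5-1 (adjusted p = 2.9e-07). Among all genes, the JAZ7 mean in siliques ranked at percentile 51.6 in NIL-DOG1 and 50.4 in rdo5-1. Background signal may compress this rise too.

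Within 6 hours of imbibition most of the family was lower than in dry seeds. In each genotype 7 of the 10 genes fell (JAZ1, JAZ2, JAZ3, JAZ8, JAZ9, JAZ10 and JAZ12), JAZ7 rose, and JAZ5 and JAZ6 were not called. Of all genes 10.6% were called lower and 14.2% higher in NIL-DOG1, and 11.9% and 16.4% in rdo5-1. The median JAZ difference was -0.51 in NIL-DOG1 and -0.49 in rdo5-1, and that of all genes -0.02 and -0.04. Of the silique wall and leaf-like tissue markers 0 of 7 were called by limma in either genotype. Their differences were -0.33 to 0.07, with 6 below 0 in each genotype. At an unadjusted p under 0.05 there were 2 in NIL-DOG1 and 0 in rdo5-1, beside 33.5% and 36.8% of all genes. In NIL-DOG1 dry seeds IND, SHP1, SHP2 and FUL already stood at percentiles of 30.8 to 36.7 of all genes. Background signal can compress a further fall at these levels.

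JAZ10 had the largest difference on imbibition: it fell by 2.60 in NIL-DOG1 (SE 0.08; 6.07-fold; adjusted p = 9.1e-12) and fell by 2.57 in rdo5-1 (5.95-fold; adjusted p = 7.7e-12). JAZ8 fell by 1.68 in NIL-DOG1 (3.21-fold; adjusted p = 2.0e-07) and by 1.13 in rdo5-1 (2.18-fold; adjusted p = 1.2e-05). JAZ1 fell by 1.04 and 0.78. For JAZ2, JAZ3 and JAZ12 the differences lay between -0.46 and -0.62 in both genotypes (adjusted p at most 0.0034). The fall of JAZ9 was 0.44 in NIL-DOG1 (adjusted p = 0.028) and 0.39 in rdo5-1 (adjusted p = 0.046). In rdo5-1 that call was lost after centring each array on its median (adjusted p = 0.0726) and without any of 12 arrays, up to adjusted p = 0.190 without rdo5-1 dry seed array 2. In NIL-DOG1 it was lost without 3 arrays, up to adjusted p = 0.124 without NIL-DOG1 dry seed array 3.

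JAZ7 rose on imbibition by 0.72 in NIL-DOG1 (SE 0.15; 1.65-fold; adjusted p = 0.0018) and by 0.95 in rdo5-1 (1.93-fold; adjusted p = 1.5e-04). Its relative JAZ8 fell over the same hours, and the intervals of both genes excluded 0 in each genotype. For JAZ5 the differences were -0.24 and -0.07, with 95% intervals of -0.46 to -0.02 in NIL-DOG1 and -0.29 to 0.15 in rdo5-1. For JAZ6 they were -0.26 and -0.13, with intervals of -0.48 to -0.05 and -0.34 to 0.09. Imbibed seed arrays ranged from 2.93 to 3.17 for JAZ5 and from 3.74 to 4.03 for JAZ6. For both genes dry and imbibed arrays overlapped in rdo5-1 and lay apart in NIL-DOG1. Among all genes, the imbibed seed mean of JAZ5 ranked at percentile 13.9 in NIL-DOG1 and 22.4 in rdo5-1. That of JAZ6 ranked at 44.6 and 49.1. Background signal can compress a difference at these levels.

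**Figure D2:**
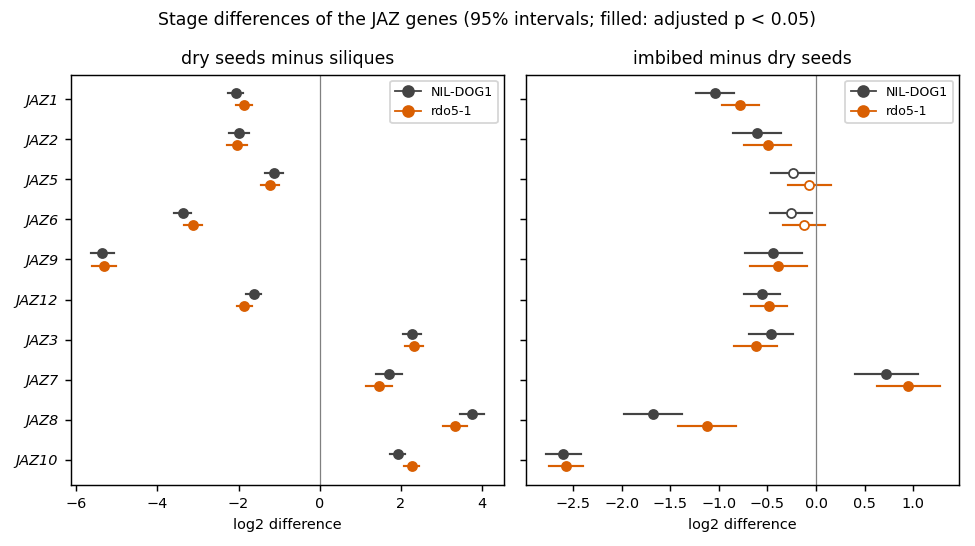
Log2 difference (x axis) of each JAZ gene (y axis) between dry seeds and siliques (left) and between imbibed and dry seeds (right) in NIL-DOG1 (grey) and rdo5-1 (orange), with 95% intervals of the limma fit; filled points are called. Both genotypes have the same direction for every gene, from -5.35 for JAZ9 to 3.76 for JAZ8 on the left and from -2.60 for JAZ10 to 0.95 for JAZ7 on the right.

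Between rdo5-1 and NIL-DOG1, 1 JAZ gene at 1 stage was called. None was called by limma in siliques (1 of 10 at an unadjusted p under 0.05) or dry seeds (3 of 10), and JAZ1 alone was called in imbibed seeds (2 of 10 at an unadjusted p under 0.05). Of all genes, 8.89% in siliques, 8.34% in dry and 8.31% in imbibed seeds had an unadjusted p under 0.05. The shares of all genes called were 0.2% for siliques, 0.137% for dry seeds and 0.633% for imbibed seeds. The arrays of both genotypes lay apart for 0 JAZ genes in siliques, for 3 among dry seeds (JAZ7, JAZ10 and JAZ12) and for 3 among imbibed seeds (JAZ1, JAZ6 and JAZ10). For all genes the share without overlap was 12.5%, 14.7% and 15.5%. The median JAZ difference was -0.01, 0.01 and 0.12 at the 3 stages, and that of all genes was within 0.01 of 0.

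JAZ1, a repressor of MYC2 and itself a target of MYC2, was the called gene. In imbibed seeds its values were 4.67, 4.65 and 4.65 in NIL-DOG1 and 5.13, 5.03 and 5.10 in rdo5-1. All 3 rdo5-1 arrays lay above all 3 NIL-DOG1 arrays, with a difference of 0.43 (SE 0.09; 95% interval 0.24 to 0.62; 1.35-fold; adjusted p = 0.043). On dry seed arrays JAZ1 read 5.58, 5.83 and 5.69 in NIL-DOG1 and 5.90, 5.74 and 5.95 in rdo5-1, which overlap, with a difference of 0.16 (adjusted p = 0.654). In siliques they were 7.67, 7.76 and 7.89 in NIL-DOG1 and 7.84, 7.81 and 7.56 in rdo5-1, which also overlap (difference -0.04; adjusted p = 0.955).

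The call of JAZ1 was close to the threshold. It was lost after quantile normalization (0.37; adjusted p = 0.118), after centring (0.43; adjusted p = 0.0629), with the 6 arrays fitted alone (adjusted p = 0.0820) and without any of 11 arrays, among them each of the 6 imbibed seed arrays (adjusted p up to 0.187 without rdo5-1 imbibed array 1). The difference itself stayed between 0.41 and 0.46 without single arrays. The JAZ1 genotype difference was larger in imbibed seeds than in siliques by 0.47 (95% interval 0.19 to 0.74), which missed the threshold (adjusted p = 0.246). Its change from dry to imbibed seeds was not called either. Without single arrays that change ranged from 0.20 to 0.33 (lowest adjusted p = 0.689 by limma). The JAZ1 differences in dry and imbibed seeds were thus not told apart.

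JAZ10 was higher in rdo5-1 without being called. The genotype difference was 0.27 in dry seeds (95% interval 0.10 to 0.45; adjusted p = 0.326) and 0.30 in imbibed seeds (0.12 to 0.48; adjusted p = 0.162), with no overlap between genotypes at either stage. In siliques the difference was -0.07 (-0.25 to 0.11). JAZ8 and JAZ7 were lower in dry rdo5-1 seeds by 0.41 (interval -0.71 to -0.11; adjusted p = 0.404) and 0.33 (adjusted p = 0.592), neither of them called. JAZ6 was 0.20 higher in imbibed rdo5-1 seeds (-0.01 to 0.42; adjusted p = 0.637).

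**Figure D3:**
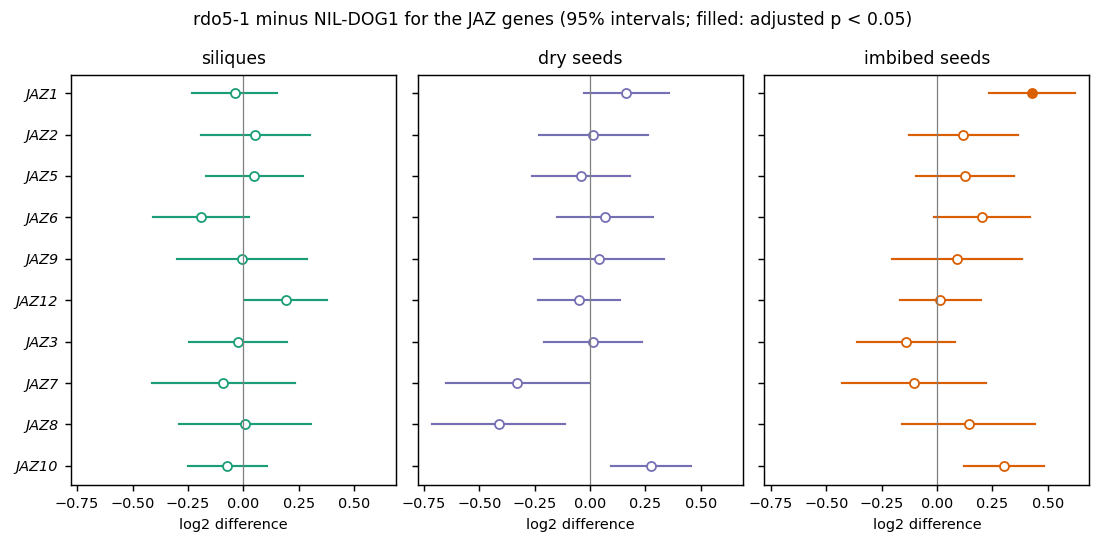
Log2 difference rdo5-1 minus NIL-DOG1 (x axis, the same scale in each panel) of each JAZ gene (y axis) in siliques, dry seeds and imbibed seeds, with 95% intervals of the limma fit; the filled point is called. JAZ1 in imbibed seeds is at 0.43, and all other points lie between -0.41 and 0.30.

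The remaining JAZ genes had differences between -0.19 and 0.19 in each genotype comparison. The 95% interval of JAZ9 in dry seeds was -0.25 to 0.34, and that of JAZ7 in imbibed seeds -0.43 to 0.22. No JAZ gene was called for a genotype effect that differed between stages, by limma with Benjamini-Hochberg adjustment. Of all genes 0.05% were called between dry seeds and siliques, 0.02% between imbibed and dry seeds and 0.103% between imbibed seeds and siliques. The unadjusted p was under 0.05 for 1, 1 and 3 of the 10 JAZ genes in these comparisons, and for 7.34%, 6.49% and 7.79% of all genes. The fall of JAZ8 on imbibition was smaller in rdo5-1 by 0.56 (95% interval 0.13 to 0.98; adjusted p = 0.612).

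Over the 18 arrays 6 of the JAZ genes formed a close set. JAZ1, JAZ2, JAZ5, JAZ6, JAZ9 and JAZ12 correlated with each other at 0.96 to 0.99 (Pearson, over arrays that share the 3 stages). JAZ3, JAZ7 and JAZ8 correlated at 0.72 to 0.96 with each other and at -0.98 to -0.74 with the 6. JAZ10 correlated most with JAZ8, at 0.67, which is not far below JAZ7 with JAZ8 at 0.72. With JAZ3 it correlated at 0.53 and with JAZ7 at -0.01. Deviations from group means correlated at -0.52 (JAZ6 and JAZ10) to 0.67 (JAZ9 and JAZ10) across all pairs. JAZ9 and JAZ12 reached 0.66 there, and JAZ2 and JAZ3, opposed over all arrays (-0.89), reached 0.65. In NIL-DOG1 siliques JAZ2, JAZ3, JAZ9 and JAZ12 were all lowest on array 2 and highest on array 3. The part of these arrays in the correlations was not tested.

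**Figure D4:**
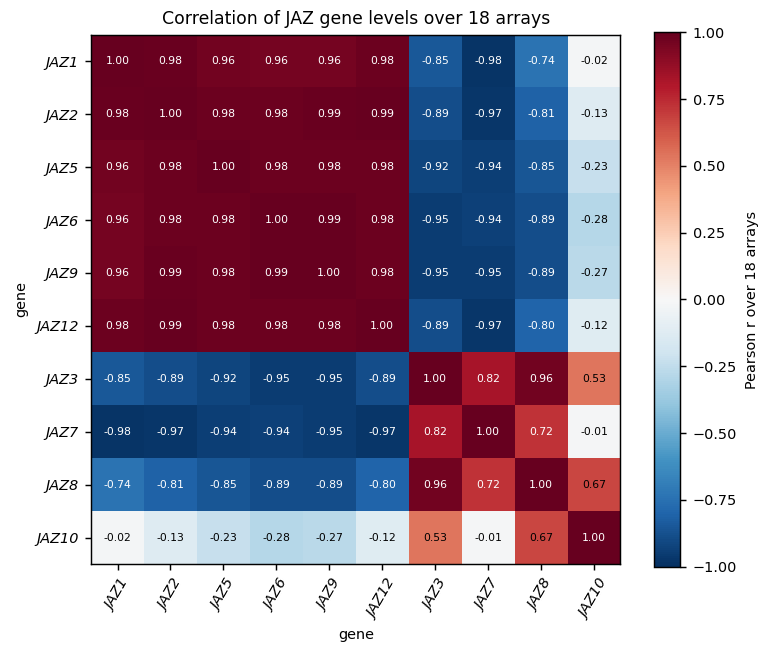
Pearson correlation of log2 values over the 18 arrays for each pair of JAZ genes, from blue (-1) to red (1). The 6 genes that are high in siliques form a block of 0.96 to 0.99, and JAZ10 lies between -0.28 and 0.67 with every other gene.

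The genes outside the family whose levels followed a JAZ gene most closely differed between members. For JAZ10 they included ZAT6, a zinc finger gene (r = 0.987 over 18 arrays), and 79 genes exceeded 0.95. For JAZ9 they included OMT1, a methyltransferase gene of phenylpropanoid metabolism (0.999), and 2840 genes exceeded 0.95. For JAZ6 they were led by the photosystem gene PSBW (0.997), and the antenna gene LHCA1 was also among the closest 3. For JAZ5 the jasmonate synthesis gene OPR3 ranked second (0.989), for JAZ8 the transcription factor gene WRKY8 ranked second (0.992), and for JAZ3 the galactinol synthase gene GolS2 ranked second (0.996). JAZ7 was followed most closely by PRH75, a nucleolar RNA helicase gene (0.987). These values are set mainly by the 3 stages and are given as a description.

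Genes of the co-repressor and partner list, which leaves out the transcription factors, changed by less than 1 log2 unit from each stage to the next. Of 8 co-repressor and partner genes, 7 were higher in dry seeds than in siliques in NIL-DOG1 and 0 were lower, and 6 were higher and 1, TPR3, lower in rdo5-1 (of all genes 27.4% and 27.2% were higher). NINJA, the adaptor between JAZ proteins and TOPLESS, rose by 0.41 to dry seeds and by a further 0.49 on imbibition in NIL-DOG1, and by 0.42 and 0.57 in rdo5-1. The co-repressor gene TPL rose by 0.44 and 0.52 in NIL-DOG1. MED25, a Mediator subunit that works with MYC2, rose by 0.62 to dry seeds and fell by 0.35 on imbibition. The list median was 0.36 for dry seeds against siliques and 0.16 for imbibed against dry seeds in NIL-DOG1. Between genotypes 0 of the 8 were called by limma at any stage (also 0 at an unadjusted p under 0.05).

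Of 12 transcription factor genes whose products JAZ proteins bind or that share their targets, 4 fell from siliques to dry seeds in NIL-DOG1 and 0 rose, and in rdo5-1 4 fell and 1 rose, beside 26.6% and 25.7% of all genes that fell, so the share of the list is near that of all genes. MYC2 fell by 2.09 in NIL-DOG1 and by 1.59 in rdo5-1, MYC3 by 0.51 and 0.58, and MYC4 by 0.41 and 0.32. EGL3, a regulator of epidermal cell fate and pigment, fell by 0.81 and 0.49. In NIL-DOG1 MYC4 and EGL3 stood at percentile 40.2 or lower of all genes at both stages, where background signal can compress a fold. The MYC3 call in NIL-DOG1 was lost after quantile normalization (-0.17; adjusted p = 0.174). On imbibition MYC2 fell by a further 0.39 and 0.42. MYC2 was also the called gene of this list between genotypes, 0.54 lower in rdo5-1 siliques (adjusted p = 0.012), a call lost without array 2 of either silique group (highest adjusted p = 0.0725) and with the 6 silique arrays fitted alone (adjusted p = 0.231).

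Of 14 jasmonate synthesis genes, 7 fell, 2 rose and 5 were not called from siliques to dry seeds in NIL-DOG1, and 8 fell, 3 rose and 3 were not called in rdo5-1 (of all genes 26.6% and 25.7% fell). The lipoxygenase gene LOX2 fell by 3.98, the cyclase gene AOC4 fell by 2.30 and OPCL1, a ligase gene of the peroxisomal steps, by 1.93 in NIL-DOG1. JAR1, which conjugates jasmonate to isoleucine, fell by 1.75 in NIL-DOG1. On imbibition JAR1 rose by 0.44 in NIL-DOG1 (adjusted p = 0.038, and 0.0833 after quantile normalization) and by 0.65 in rdo5-1. The call in NIL-DOG1 was also lost without any of the 6 arrays compared (highest adjusted p = 0.140). AOC3 and ACX1, a peroxisomal oxidase gene, rose by 1.15 and 1.27 to dry seeds in NIL-DOG1. Between genotypes 0 of the 14 were called by limma at any stage (at an unadjusted p under 0.05, 0 in siliques and 1 at each seed stage).

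Genes of jasmonate breakdown were split. Of 10, 3 rose and 5 fell from siliques to dry seeds in NIL-DOG1, and 4 rose and 4 fell in rdo5-1. Of all genes 27.4% rose and 26.6% fell in NIL-DOG1, and 27.2% and 25.7% in rdo5-1. CYP94C1, which oxidises the active conjugate, fell by 1.99, and ST2A, a hydroxyjasmonate sulfotransferase gene, rose by 1.17. ST2A was the called gene of the list between genotypes: in imbibed seeds it ran from 9.98 to 10.17 in NIL-DOG1 and from 10.59 to 10.79 in rdo5-1, a difference of 0.62 (1.54-fold; adjusted p = 0.0021). JAZ1, whose call was close to the threshold, was also higher in imbibed rdo5-1 seeds, and a link between the 2 differences was not tested. In dry seeds, where JAZ1 overlapped, ST2A ran from 10.75 to 10.91 in NIL-DOG1 and from 11.21 to 11.33 in rdo5-1, without being called. ST2A kept its call without each of the 18 arrays in turn and lost it with the 6 arrays fitted alone (adjusted p = 0.0629).

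Of 10 jasmonate response genes, 5 fell and 0 rose from siliques to dry seeds in NIL-DOG1, and 4 fell and 0 rose in rdo5-1 (of all genes 26.6% and 25.7% fell). The remaining 5 and 6 were not called. In NIL-DOG1 VSP1, a vegetative storage protein gene, fell by 7.96, CORI3 fell by 3.33, the transcription factor gene NAC055 fell by 2.02 and VSP2 fell by 1.06. On imbibition NAC019 fell by 2.21 and NAC055 by 1.03, and none of the other 8 was called. Between genotypes VSP1 was 0.83 lower in rdo5-1 siliques (difference -0.83; adjusted p = 0.037), a call lost without any of 12 arrays (highest adjusted p = 0.173) and with the 6 silique arrays fitted alone (adjusted p = 0.548). In imbibed seeds, the stage of the near-threshold JAZ1 call, 0 of the 10 were called by limma (2 at an unadjusted p under 0.05). The differences were -0.13 to 0.52, with a median of -0.01. In NIL-DOG1 imbibed seeds VSP1, VSP2, THI2.1, CORI3, ORA59, ERF1 and TAT3 stood at percentiles of 4.7 to 37.0 of all genes. Background signal can compress a difference at these levels.

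**Figure D5:**
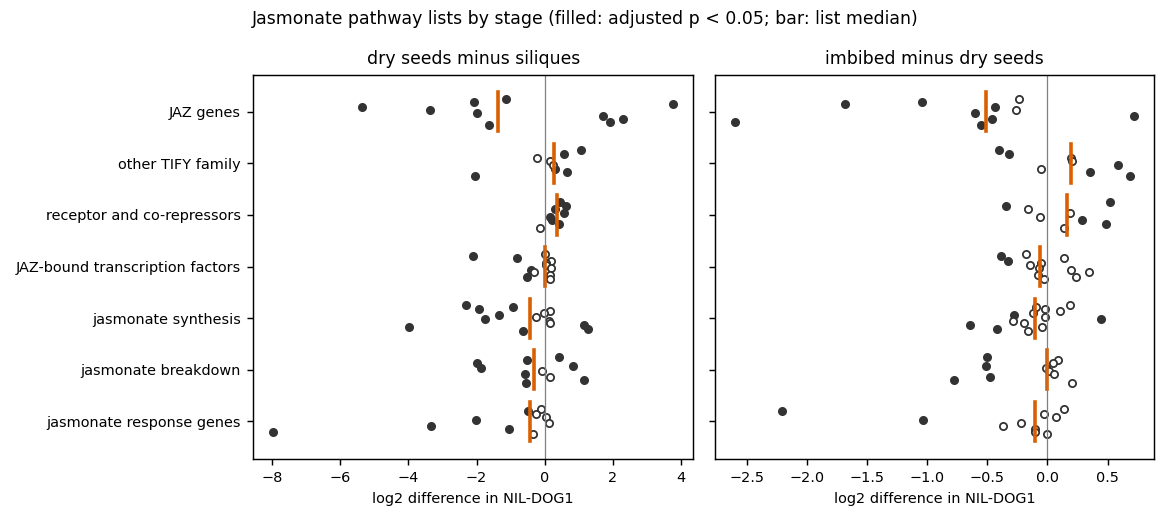
Log2 difference in NIL-DOG1 (x axis) between dry seeds and siliques (left) and between imbibed and dry seeds (right) for the genes of each jasmonate pathway list (y axis); filled points are called and orange bars are list medians. The JAZ genes spread from -5.35 to 3.76 on the left, and partner and co-repressor genes lie between -0.14 and 0.62.

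Touch and early wound response, a process in which JAZ genes are induced, was covered by 8 genes. Of these, 3 rose and 3 fell from siliques to dry seeds in NIL-DOG1. On imbibition 2 rose and 2 fell there, with a list median of -0.05 in each comparison. In rdo5-1 3 rose and 3 fell to dry seeds, and 3 rose and 2 fell on imbibition. Of all genes 27.4% rose and 26.6% fell to dry seeds in NIL-DOG1, and 14.2% and 10.6% on imbibition. The shares in rdo5-1 were 27.2% and 25.7%, and 16.4% and 11.9%. WRKY33 and ZAT10 peaked in dry seeds like JAZ8 and JAZ10, and TCH4, a cell wall enzyme gene, and TCH2, a calmodulin-like gene, fell by 1.46 and 1.40 from siliques to dry seeds. WRKY33 rose by 3.95 to dry seeds and fell by 2.52 on imbibition in NIL-DOG1, and ZAT10 rose by 1.81 and fell by 1.83. In imbibed seeds WRKY33 was 0.96 higher in rdo5-1 (5.48 to 5.66 in NIL-DOG1 and 6.05 to 6.78 in rdo5-1; adjusted p = 0.0092), the 1 gene of the 8 that was called. By limma 4 of the 8 had an unadjusted p under 0.05 there, with differences of -0.23 to 0.96 and a median of 0.28. Of all genes 0.633% were called and 8.31% had an unadjusted p under 0.05. The list averaged 5.71 to 5.73 on NIL-DOG1 and 5.74 to 6.23 on rdo5-1 imbibed seed arrays. JAZ1, whose call was close to the threshold, was also higher there. The part of this list in the JAZ1 difference was not tested. WRKY33 lost its call without NIL-DOG1 imbibed array 1 or rdo5-1 imbibed array 1 or 3 (highest adjusted p = 0.0653), and with the 6 imbibed arrays fitted alone (adjusted p = 0.160).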

How the data were processed

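Total RNA of 18 samples was labelled with biotin and hybridised to Affymetrix AGRONOMICS1 arrays. The authors deposited log2 values made with RMA, per the submitters' processing notes. Neither the RMA software, nor how probes were assigned to loci, nor whether normalization was joint is given in the sources used here. Groups and replicate numbers came from the labels. Nothing says that replicates came from separate plants beyond the word biological, so p-values measure the spread between these samples. Probes of near-identical JAZ genes may share signal, which was not tested.

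Group means were fitted with limma 3.58.1 in R 4.3.3 (12 residual degrees of freedom, no gene filtered, Benjamini-Hochberg adjustment over 30014 genes) for 10 comparisons. Intervals are 95% intervals of single genes. The number of arrays limits the precision. The fit was tested on simulated data. JAZ genes and the 9 other lists were chosen with earlier results of these data known. Of 83 genes written in the other lists 81 were used, and 2 are not analysed here. Names came from a TAIR10.1 gene table, which lacks a name for some list genes, shown by locus code; RDO5 is listed there as a synonym. All JAZ genes were named, with every called list gene of a genotype comparison and up to 3 per list for stages, though not all are printed. MYC4, VSP2, IND and TPR3 fall outside that rule and were chosen after their values were seen. Alternatives were a filter on the 30% of genes of lowest mean, quantile normalization, median centring, trend and robust settings, array weights, the compared arrays alone, a replicate block and leaving out each array.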

Additional observations from a re-analysis of the deposited data

How the results depend on the processing

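The stage calls of the JAZ genes held under the filter, both scalings, trend and robust settings, array weights, the compared arrays alone and the replicate block, except for JAZ9 in rdo5-1 imbibed seeds after centring. Centring moved the median of all genes for dry seeds against siliques from 0.05 to 0.30 in NIL-DOG1 and from 0.06 to 0.29 in rdo5-1, and every JAZ direction there was kept. Without single arrays the NIL-DOG1 count of falls on imbibition was 6 to 8 and that in rdo5-1 6 to 7. The count of JAZ genes higher in imbibed rdo5-1 seeds, 1, was 0 after quantile normalization, after centring, with the compared arrays alone, with the replicate block (JAZ1 adjusted p = 0.0891) and without 11 of the arrays, a range of 0 to 1. Deviations of same-numbered arrays correlated above 0.1 for 1 of 3 pairs in siliques (0.17) and for 0 in the other comparisons. With 3 arrays per group these correlations cannot decide whether the same replicate number pairs samples. The block changed no other JAZ call, and ended that of VSP1 in siliques (adjusted p = 0.0939). The cause of these changes was not tested.

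Sign changes concerned small differences that were not called. After quantile normalization the genotype difference of JAZ2 in siliques was -0.0062, of JAZ3 in dry seeds -0.025 and of JAZ12 in imbibed seeds -0.040, the JAZ5 difference on imbibition in rdo5-1 was 0.013, the JAZ2 change of genotype effect from siliques to dry seeds was 0.038 and the JAZ10 change on imbibition -0.0063. With array weights JAZ1 in siliques was 3.35e-04 and the JAZ7 change from siliques to imbibed seeds 0.015, and after centring JAZ9 in siliques was 0.0080. Without single arrays the silique genotype differences ranged from -0.093 to 0.050 (JAZ1), -0.11 to 0.20 (JAZ2), -0.17 to 0.061 (JAZ3), -0.019 to 0.18 (JAZ5), -0.11 to 0.14 (JAZ8) and -0.18 to 0.12 (JAZ9). In dry seeds they ranged from -0.037 to 0.042 (JAZ2), -0.011 to 0.034 (JAZ3), -0.083 to 0.023 (JAZ5) and -0.067 to 0.13 (JAZ9), and in imbibed seeds from -0.022 to 0.059 (JAZ12) and -0.32 to 0.048 (JAZ7). The change of genotype effect from siliques to dry seeds ranged from -0.18 to 0.12 (JAZ2), -0.046 to 0.19 (JAZ3) and -0.074 to 0.23 (JAZ9), on imbibition from -0.020 to 0.12 (JAZ10) and -0.040 to 0.16 (JAZ9), and from siliques to imbibed seeds from -0.079 to 0.23 (JAZ2), -0.20 to 0.033 (JAZ3), -0.054 to 0.14 (JAZ5), -0.23 to 0.14 (JAZ7) and -0.024 to 0.28 (JAZ9).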
